A study of Mus musculus with 4 samples.

Results

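Activated CD8 T cells of the mouse lung were described in droplet single-cell RNA libraries of leukocytes. They were chosen by their own counts of UMIs, the molecular tags that mark single captured RNA molecules. A member had at least 1 UMI of a CD3 chain (Cd3e, Cd3d or Cd3g), at least 1 of Cd8a or Cd8b1, and at least 1 of Cxcr6, Pdcd1, Gzmk or Gzmb. It had no UMI of Cd4, Foxp3 or Cd79a, at most 5 of Lyz2 and at most 2 of the 3 C1q chains together. In all, 173 of 9256 barcodes that passed the cell filter (at least 200 genes and at most 10% mitochondrial UMIs) were members, out of 10382 barcodes deposited. The 264 CD8 T barcodes that met every other term but had none of those last 4 genes are called gate-negative below.

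The cells came from Balb/c mice 14 days after 4T1 cells were injected into a vein. 4T1 is a Balb/c breast carcinoma line whose cells lodge and grow in the lungs. The injected cells were either PD-L1 KO (2 libraries) or WT (2 libraries), so the knockout was in the tumour cells and not in the mice, and no library came from a mouse without tumour. Leukocytes were pulled from perfused, collagenase-digested lungs with CD45 magnetic beads. PD-L1 KO and WT stand throughout for the libraries so labelled: the file names give the reverse condition for each library, and every direction rests on the labels. Nothing states that each library was a mouse of its own, so p-values measure only the spread between libraries, which may be technical. Cd274, the gene of PD-L1, was at 47.5 and 38.9 CPM (UMIs per 1000000) over all kept barcodes of the PD-L1 KO libraries and at 31.0 and 24.1 CPM in the WT libraries. Host leukocytes, which kept the gene, gave these UMIs with any tumour cells, so the level does not check the labels.

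A naive CD8 T cell circulates through lymph nodes with the homing receptor CCR7. Once its receptor meets antigen with co-stimulation it divides, switches to glycolysis, arms itself with granzymes and perforin, and takes on receptors such as CXCR6 that hold it in peripheral tissue. Continued stimulation keeps up PD-1, the receptor encoded by Pdcd1, which passes an inhibitory signal when PD-L1 on a tumour or myeloid cell binds it. Blocking that contact is a form of cancer immunotherapy.

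The members were few in each library. PD-L1 KO 1 and 2 held 60 and 27, and WT 1 and 2 held 51 and 35. Their summed UMIs, on which all levels rest, were 512560 and 199945 in the PD-L1 KO libraries and 309410 and 213173 in the WT libraries. The median member had 5846 and 6081 UMIs in the PD-L1 KO libraries and 4714 and 4590 in the WT libraries. The median gate-negative cell had 4398 and 5037 UMIs in the PD-L1 KO libraries and 4270 and 4578 in the WT libraries. The deepest cell alone gave between 6.32% and 11.7% of a library's member UMIs. No barcode shared between libraries was a member.

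The part of the leukocytes that met the rule did not separate the groups. Members made up 2.64% and 1.31% of kept barcodes in the PD-L1 KO libraries and 2.03% and 1.45% in the WT libraries. The PD-L1 KO libraries were thus both the highest and the lowest. The means were 1.98% ± 0.943 in PD-L1 KO and 1.74% ± 0.413 in WT (SD, n = 2 each), and the exact permutation test (two-sided) gave p = 1.0, where 0.333 is the smallest p this design allows. Among CD8 T barcodes, the activated share was 45.8% and 42.9% in the PD-L1 KO libraries, against 45.1% and 26.9% in the WT libraries (exact permutation p = 0.667). Only WT 2 stood apart, and without it the difference of the means of PD-L1 KO minus WT was -0.803 percentage points, against 8.30 with it. In dissociated tissue, a share cannot tell fewer members from more of other cells.

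**Figure D1:**
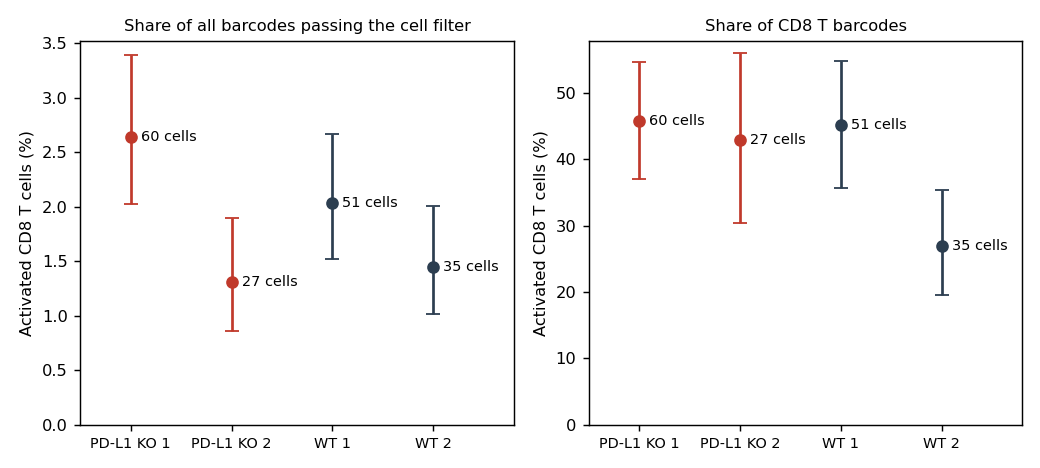
Activated CD8 T cells per library as a percentage of all barcodes passing the cell filter (left) and of CD8 T barcodes (right), PD-L1 KO libraries in red and WT libraries in dark blue. Points are library values and bars exact (Clopper-Pearson) 95% binomial intervals, which cover counting error only. The right panel shows WT 2 at 26.9% and the other libraries between 42.9% and 45.8%.

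The genes that chose the members are given as values with no test. Cxcr6, the receptor for CXCL16 (chr9:123806475-123811760, GRCm38, plus strand), led the gate. Its level was 498 and 695 CPM in the PD-L1 KO libraries and 705 and 324 CPM in the WT libraries. Pdcd1 (chr1:94038305-94052553, minus strand) was at 265 and 170.0 CPM in the PD-L1 KO libraries and 268 and 51.6 CPM in the WT libraries. Gzmb, the cytotoxic protease granzyme B, was at 246 and 330.1 CPM in the PD-L1 KO libraries and 301 and 84.4 CPM in the WT libraries. Gzmk was at 31.2 and 55.0 CPM in the PD-L1 KO libraries and 87.3 and 56.3 CPM in the WT libraries. WT 2 was thus lowest for Cxcr6, Pdcd1 and Gzmb but not for Gzmk.

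Most members met the gate through Cxcr6. It was the single gate gene detected in 57 members (32.9%), and Cxcr6 with Pdcd1 alone was detected in 34 (19.7%). All 4 genes were detected together in 5 members. The gate rested on exactly 1 UMI in 13 and 8 members of the PD-L1 KO libraries and in 10 and 17 of the WT libraries, so 48 of 173 members sat just inside the threshold, and the 264 gate-negative cells had 0 by definition. WT 2 had 17 of its 35 members on that edge. In B-cell barcodes, which should lack these genes, Cxcr6 had a UMI in 1.36% to 1.82% of cells before thinning. Their median depths were 2953 to 3455 UMIs. Members had Cxcr6 in 71.4% to 80.0% of cells, but the rule itself raises that share and members were deeper. The B-cell share therefore gives a background for Cxcr6 alone and does not check the gate.

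Markers that the rule did not use were checked next. After each cell was thinned to 2000 UMIs (8 of 173 members were shallower and left out), Trbc2, a T-cell receptor constant chain, was detected in 89.7% and 77.8% of members of the PD-L1 KO libraries and in 95.7% and 82.4% of those of the WT libraries. Before thinning these shares were 96.7% and 100% in the PD-L1 KO libraries and 96.1% and 91.4% in the WT libraries. Nkg7, a cytotoxic granule protein, was seen after thinning in 84.5% and 85.2% of members of the PD-L1 KO libraries, and in 89.1% and 64.7% of those of the WT libraries. Gate-negative cells had Trbc2 in 80.0% to 86.9% and Nkg7 in 42.6% to 55.6%, so Trbc2 marks T cells without telling the classes apart. The B-cell marker Ms4a1 was detected in none of the thinned members, while 85.0% to 89.4% of thinned B cells had it. Tyrobp, an adaptor of NK and myeloid cells, and S100a9, a neutrophil gene, also had UMIs in members. Before thinning, Tyrobp was detected in 18.5% to 25.5% of members and in 25.8% to 35.5% of B cells by library, and S100a9 in 17.1% to 29.6% of members and in 13.7% to 22.6% of B cells. Before thinning, Ncr1, another NK gene, had a UMI in a mean of 11.6% of PD-L1 KO and 10.6% of WT members. For Klrb1c these means were 5.37% and 0.98%, and for Fcer1g 26.5% and 26.2%. The gamma-delta T-cell genes Trdc (8.89% and 7.68%) and Tcrg-C1 (4.54% and 5.80%) were also detected. In the shallower gate-negative cells, Ncr1 was seen in 0% to 3.23% by library, Klrb1c in 0% to 1.41% and Fcer1g in 12.6% to 33.3%. Trdc was seen in 0% to 2.78% and Tcrg-C1 in 0%. A rule on Cd3 and Cd8 chains does not remove NK-like or innate-like T cells that carry CD8.

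**Figure D2:**
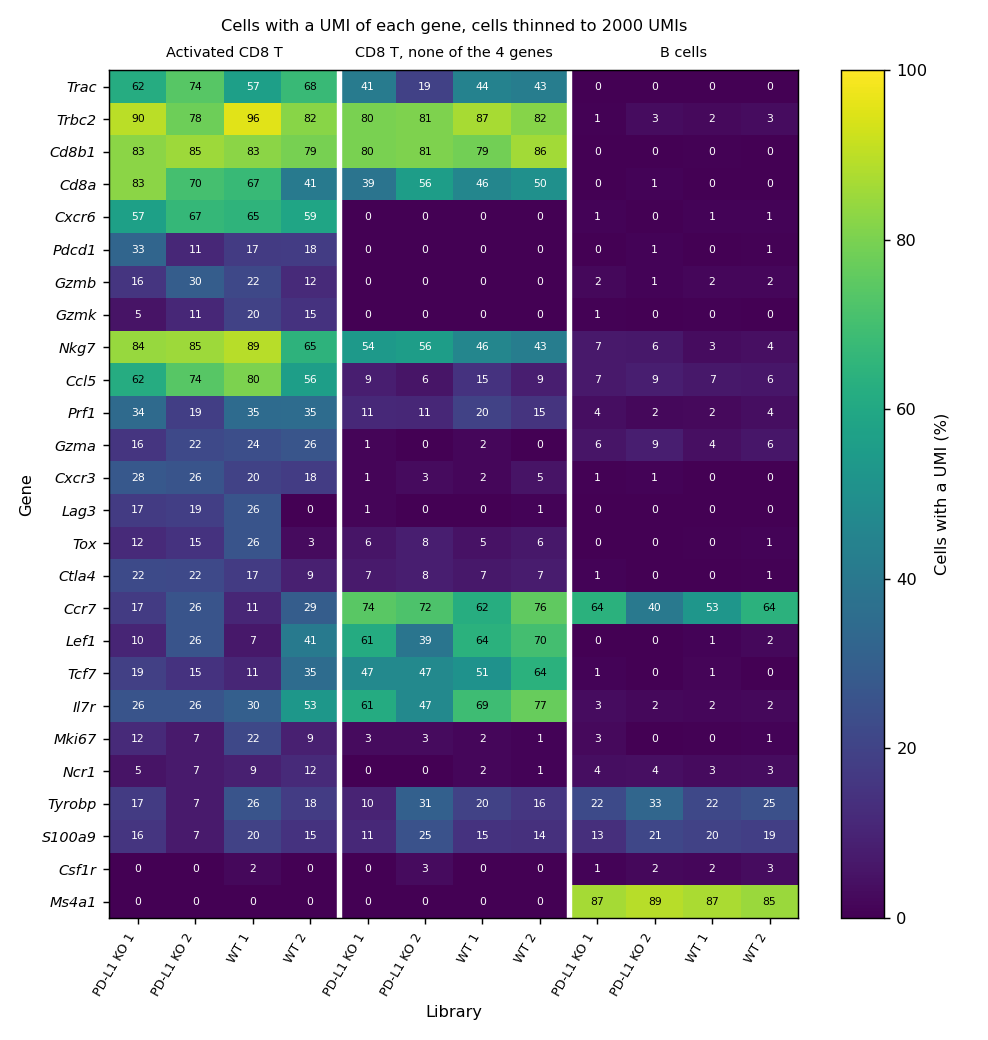
Percentage of cells with at least 1 UMI of each gene (rows) in each library (columns), for activated CD8 T cells, gate-negative CD8 T cells and B cells, every cell thinned to 2000 UMIs. Nkg7 and Ccl5 separate the activated block from the gate-negative one, Ccr7, Lef1 and Il7r run the other way, and Ms4a1 marks B cells alone. The gate genes Cxcr6, Pdcd1, Gzmb and Gzmk are 0 in gate-negative cells by the rule.

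Set against the gate-negative CD8 T cells of the same libraries, the members had higher cytotoxic, cell-cycle and trafficking transcripts and lower naive transcripts. Counts were summed per library and class and tested with edgeR's quasi-likelihood test with the library as a block. Of 4137 genes tested, 351 (8.48%) rose in members and 333 (8.05%) fell at a Benjamini-Hochberg adjusted p of at most 0.05. Genes of the rule, the gate among them, stayed in the fit and in these counts, but no test of them is given. Genes that travel with the gate in single cells are what such a comparison collects. The median member was deeper than the median gate-negative cell in each library.

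Among cytotoxic effectors, 10 of 15 tested genes rose and 1 fell. Gzma, encoding the tryptase granzyme A (chr13:113093825-113100981, minus strand), was at 439 and 850.2 CPM in members of the PD-L1 KO libraries and 1403 and 1792 CPM in those of the WT libraries. Members held 1211 Gzma UMIs in all, against 2 in gate-negative cells, a ratio of 719 (exact 95% interval 199 to 5944, counting error only). Those UMIs came from few cells: after thinning, Gzma was detected in 15.5% and 22.2% of members of the PD-L1 KO libraries and 23.9% and 26.5% of those of the WT libraries, against 0% to 1.64% of gate-negative cells and 4.27% to 8.51% of B cells.

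Ccl5, a chemokine of effector and memory T cells, was by contrast widespread. It was at 5506 and 5827 CPM in members of the PD-L1 KO libraries and 10032 and 6553 CPM in those of the WT libraries. In gate-negative cells it was at 530.3 and 103 CPM in the PD-L1 KO libraries and 799.8 and 169 CPM in the WT libraries, with no overlap between classes (log2 difference 4.23 ± 0.33 SE, adjusted p = 1.70e-06). Prf1, the pore-forming perforin, rose by 1.91 ± 0.28 and Nkg7 by 2.11 ± 0.18 on the log2 scale. Lamp1, a lysosomal membrane protein, fell by 0.88. Ccl4, another chemokine, rose by 3.28, but its 93.8 CPM in members of WT 2 lay below the 222 CPM in gate-negative cells of PD-L1 KO 2.

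Klrk1 (NKG2D, an activating receptor for stress ligands) was at 382 and 360.1 CPM in members of the PD-L1 KO libraries and 546 and 267 CPM in those of the WT libraries, and at most 45.9 CPM in gate-negative cells (log2 difference 4.03, adjusted p = 5.54e-06). Klrc1, whose NKG2A product is inhibitory, gave 185 UMIs in members against 2 in gate-negative cells, a ratio of 110 (interval 30.0 to 914). Klrc2, which encodes an activating counterpart, rose by 4.98 and Klrd1, the CD94 chain that pairs with both, by 2.16. Klrc1 and Klrc2 are close copies, and the treatment of reads matching both was not given.

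Inhibitory receptors and exhaustion genes rose in 10 of 13 tested and fell in 1. Lag3, an inhibitory receptor for MHC class II, was at 166 and 135 CPM in members of the PD-L1 KO libraries and 213 and 42.2 CPM in those of the WT libraries. No gate-negative sum exceeded 7.86 CPM (log2 difference 4.12 ± 0.39, adjusted p = 6.62e-06). Tox, a transcription factor of persistently stimulated T cells, rose by 1.38 and Bhlhe40, a factor of activated T cells, by 2.26. Ctla4 rose by 1.45, although members of WT 2, at 42.2 CPM, lay below the highest gate-negative sum of 43.3 CPM. The Ctla4 call was lost with DESeq2 (adjusted p = 0.137) and without PD-L1 KO 1 (0.0997), and that of Tox with DESeq2 (0.0662). Havcr2 and Tigit were too sparse to be tested. Ifng, Xcl1 and Tnfrsf9 (the co-stimulatory receptor 4-1BB) were also not tested. Ifng was at 93.6 and 105 CPM in members of the PD-L1 KO libraries and 165 and 28.1 CPM in those of the WT libraries, and at 0 to 15.4 CPM in gate-negative cells.

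Trafficking genes rose in 14 of 24 tested and fell in 2. Lgals1, a galectin, was at 1978 and 1971 CPM in members of the PD-L1 KO libraries and 2288 and 1534 CPM in those of the WT libraries, against 130.1 to 308 CPM in gate-negative cells (log2 difference 3.05 ± 0.19, adjusted p = 1.04e-07). S100a4 rose by 3.44, Ccr2 by 2.40 and Cxcr3, the receptor for the interferon-induced ligands CXCL9 and CXCL10, by 2.17. Itgae, the CD103 integrin chain of epithelial-resident T cells, was at 13.7 and 30.0 CPM in members of the PD-L1 KO libraries and 19.4 and 18.8 CPM in those of the WT libraries, too low to test. Among co-stimulatory receptors 3 of 7 rose, including Icos (1.54), and of receptor signalling genes 3 of 20 rose and 4 fell. Il2rb, a chain of the IL-2 and IL-15 receptors, rose by 1.93, while the immediate-early factors Jun, Egr1, Fos and Junb fell by 2.16, 1.20, 1.12 and 0.75.

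Dividing cells were concentrated among members. With at least 2 UMIs of 6 proliferation genes (Mki67, Top2a, Ccna2, Cdk1, Birc5 and Pclaf) as the mark, 13 and 6 members of the PD-L1 KO libraries and 12 and 3 of the WT libraries were cycling. After thinning the cycling share of members was 17.2% and 11.1% in the PD-L1 KO libraries and 21.7% and 5.88% in the WT libraries, and that of gate-negative cells was 1.06% to 2.78%. Cycling cells gave 44.1% and 39.6% of member UMIs in the PD-L1 KO libraries and 44.5% and 20.5% in the WT libraries. Of 29 tested cell-cycle genes 26 rose and none fell, among them Birc5 (survivin) by 3.56, Mki67 by 2.38 and Pclaf by 2.31. Ube2c, which drives mitotic exit, gave 211 UMIs in members and 2 in gate-negative cells. Glycolytic enzymes rose in 7 of 13 tested, with Gapdh at 962 to 1561 CPM in members and 431 to 601 CPM in gate-negative cells. Without cycling cells, 97 genes rose and 59 fell in members, and without PD-L1 KO 1 133 rose and 71 fell.

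The naive and memory programme ran the other way, with 14 of 20 tested genes lower and 4 higher. Ccr7 was at 152 and 185 CPM in members of the PD-L1 KO libraries and 100.2 and 375 CPM in those of the WT libraries, against 652 to 991 CPM in gate-negative cells (log2 difference -2.28 ± 0.24, adjusted p = 1.57e-05). S1pr1, which lets lymphocytes leave tissue into lymph and blood, fell by 2.39, its activator Klf2 by 1.55, Lef1 by 1.97 and Tcf7 by 1.66. Members of WT 2 held the most of Ccr7, S1pr1, Klf2, Lef1, Tcf7 and Il7r of the 4 libraries, and for Lef1, Tcf7 and Il7r they overlapped the gate-negative cells. The higher genes were Id2, Cd44, Il18r1 and Il18rap, which effector and memory cells express.

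Interferon-response genes did not move one way. Of 36 tested, 6 rose, including Epsti1 (1.05), Isg20 (1.29) and Ifi27l2a (1.45), 3 fell, and Isg15 (-0.09 ± 0.29) did not pass. Ly6a, the surface antigen Sca-1, was among those that fell (-1.08, adjusted p = 0.0190), but its direction turned to 0.24 in cells thinned to 2000 UMIs. The Ly6a call was also lost with DESeq2, a gate of 2 UMIs, no library block and stricter cell limits, and without cycling cells or the deepest cells. MHC class I presentation rose in 4 of 19 tested and fell in none, and heat shock chaperones rose in 2 of 10 and fell in none.

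Markers of other cells moved with this comparison, but not all the same way. The 16 structural, red cell and carcinoma genes summed to 45.2 to 117 CPM in members, against 888 and 2050 CPM in gate-negative cells of the PD-L1 KO libraries and 70.8 and 519 CPM in those of the WT libraries. The 12 neutrophil genes, led by S100a9, summed to 3541 and 530.1 CPM in members of the PD-L1 KO libraries and 6499 and 2749 CPM in those of the WT libraries. In gate-negative cells they summed to 4199 and 9655 CPM in the PD-L1 KO libraries and 5679 and 6106 CPM in the WT libraries. In WT 1 the members thus held more. Of these neutrophil genes 1 of 6 tested, G0s2, fell, against 8.05% of all genes tested. Of dendritic genes 1 of 5 tested, Cd74, fell. Their sum was higher in members of PD-L1 KO 1 (1779 against 950 CPM) and lower in those of the other libraries. Of macrophage and monocyte genes 1 of 4 tested, Apoe, fell and 1 rose. Their sum was higher in members except in PD-L1 KO 2 (275 against 417 CPM). The endothelial gene Pecam1, the only structural gene tested, also fell. Of 5 tested markers of other T and NK subsets, 3 rose (Gata3, Ctla4 and the NK receptor Ncr1). The part of these cells' RNA in the result was not tested.

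**Figure D3:**
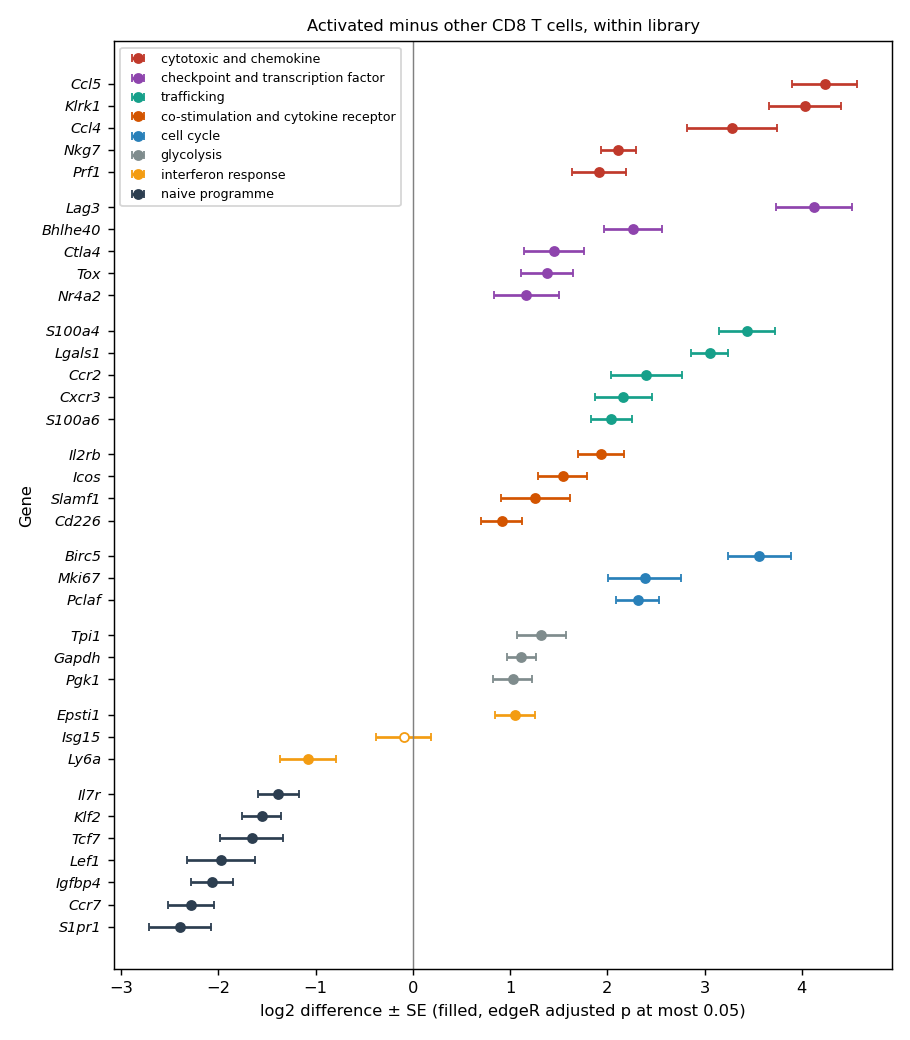
Log2 difference of activated minus gate-negative CD8 T cells for named genes, grouped by role. Bars are 1 SE derived from edgeR's F statistic over 4 libraries. Filled points passed an adjusted p of 0.05; Ccl5 (4.23), Lag3 (4.12) and Lgals1 (3.05) lie right of 0 and S1pr1 (-2.39) and Ccr7 (-2.28) left of it.

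Members were also compared by whether Pdcd1 was detected. Pdcd1 is a gene of the gate, so a member without it had to carry Cxcr6, Gzmk or Gzmb, and transcripts that travel with those genes are favoured on that side by the choice of cells. Members with Pdcd1 numbered 30 and 12 in the PD-L1 KO libraries and 21 and 7 in the WT libraries. The split was also one of depth and division: their median UMIs were 7237 and 10275 in the PD-L1 KO libraries and 6721 and 8191 in the WT libraries, against 4914 and 5285 UMIs in the PD-L1 KO libraries and 3813 and 4379 UMIs in the WT libraries for members without Pdcd1. Of the 70 members with Pdcd1, 25 were cycling, against 9 of 103 without. Of 2174 genes tested with the library as a block, 57 (2.62%) were higher with Pdcd1 and 99 (4.55%) lower. Genes of the rule were left in this fit and its counts. Without PD-L1 KO 1 or without PD-L1 KO 2 the count of genes that passed was 51.

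Exhaustion-associated genes led the higher side, with 7 of 11 tested higher and 1, Pdcd4, lower. Rgs16, a brake on G-protein signalling, was at 146 and 116 CPM with Pdcd1 in the PD-L1 KO libraries and 149.7 and 72.4 CPM in the WT libraries. Without Pdcd1 it was at 24.5 and 0 CPM in the PD-L1 KO libraries and 7.02 and 6.94 CPM in the WT libraries (log2 difference 3.19 ± 0.47, adjusted p = 0.00105). Lag3 was higher by 2.59, the transcription factor genes Ikzf2, Batf and Tox by 1.93, 1.60 and 1.13, and Ctla4 by 1.25. The Tox call was lost with DESeq2, a gate of 2 UMIs, no library block, and stricter cell or lineage limits. It was also lost without doublets, the deepest cells, PD-L1 KO 1, PD-L1 KO 2 or WT 2. That of Ctla4 was lost with DESeq2, no library block and stricter cell limits, and without PD-L1 KO 1 or PD-L1 KO 2. That of Batf was lost without PD-L1 KO 1, PD-L1 KO 2, WT 1 or the deepest cells, and that of Ikzf2 without PD-L1 KO 2 or WT 2. Rgs16, Lag3, Ikzf2, Tox and Ctla4 no longer passed when cells were thinned before the split. Of cell-cycle genes 11 of 22 were higher and none lower. Ifng was higher by 1.42 and Ccl4 by 1.38, but both overlapped between the classes. When cells were thinned before the split, Ifng (-0.082), Ccl4 (-0.13) and Ctla4 (-0.0038) turned direction.

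Of the naive and memory programme, 13 of 18 tested genes were lower with Pdcd1. Klf2 was at 175 and 169.9 CPM with Pdcd1 in the PD-L1 KO libraries and 227 and 449 CPM in the WT libraries. Without Pdcd1 it was at 761 and 931 CPM in the PD-L1 KO libraries and 1229 and 1777 CPM in the WT libraries, with no overlap (log2 difference -2.35 ± 0.17, adjusted p = 1.65e-06). Lef1 (-3.43), the chromatin organiser Satb1 (-1.97), Jun (-2.53) and the T-cell kinase Txk (-2.13) were lower with Pdcd1 as well. Gzma was at 366 and 599 CPM with Pdcd1 in the PD-L1 KO libraries and 41.9 and 463 CPM in the WT libraries. Without Pdcd1 it was at 549.9 and 1169 CPM in the PD-L1 KO libraries and 2999 and 2429 CPM in the WT libraries (log2 difference -2.23 ± 0.50, adjusted p = 0.0183), on the side that the gate favours. The Gzma call was lost with DESeq2 (adjusted p = 0.271), without PD-L1 KO 2 (0.0586) and without WT 2 (0.0735). Ccl5 was lower by 1.17 and Ccr2 by 1.51, while Prf1 (0.58 ± 0.38) and Nkg7 (0.39 ± 0.17) did not pass.

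Among cytotoxic effectors none of 15 tested was higher with Pdcd1 and 3 were lower (Gzma, Serpinb9 and Lamp1). The NK and myeloid adaptor genes Tyrobp and Fcer1g fell by 0.98 each, and S100a9 and G0s2 of the neutrophil list by 1.18 and 1.77. Their part in the result was not tested. When cells were thinned before Pdcd1 was called, 28 genes passed, and of 32 named genes that had passed and were tested again, 24 no longer did. The remaining 8 were Klf2, Lef1, Jun, Satb1, Txk, Txnip and Gzma, all lower with Pdcd1, and Cenpf, which was higher. The Cenpf call was lost, as that of Gzma was, with DESeq2 (adjusted p = 0.129), without PD-L1 KO 2 (0.0833) and without WT 2 (0.0643). Lag3 was then at 0.93 (adjusted p = 0.153) and Rgs16 at 1.11 (adjusted p = 0.443).

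**Figure D4:**
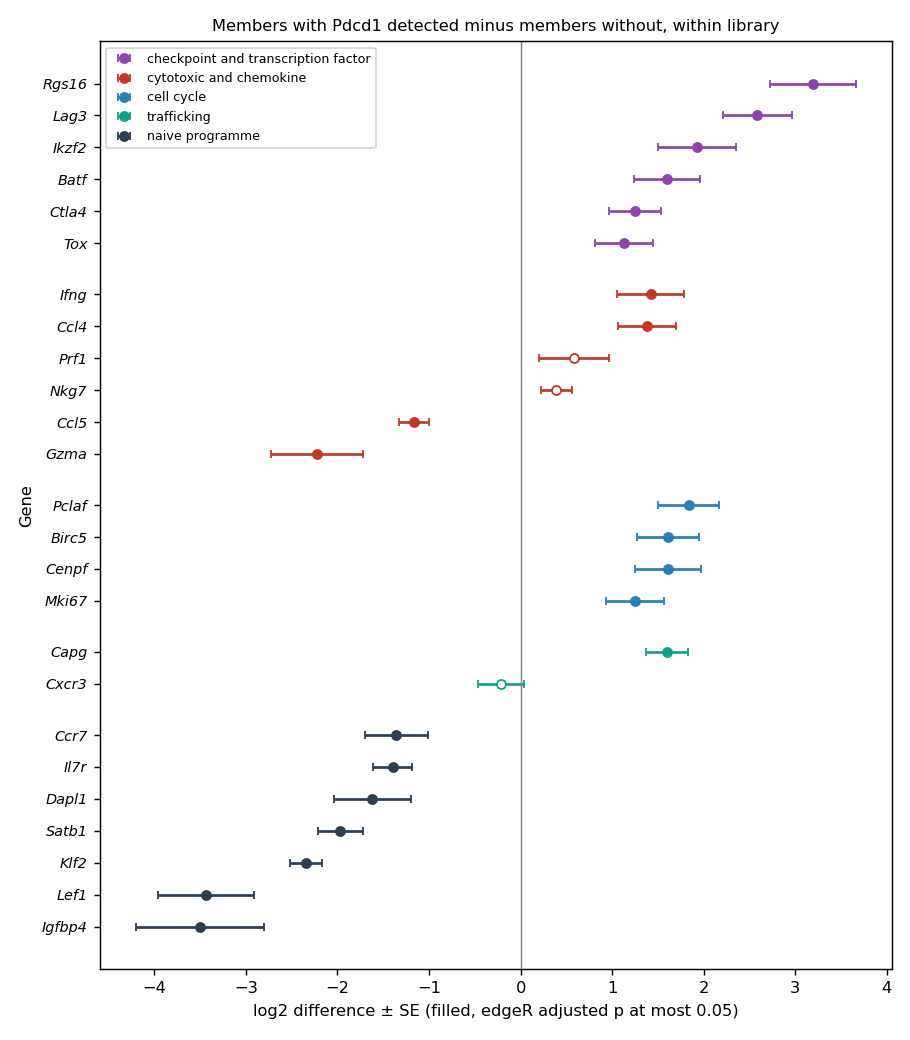
Log2 difference of members with Pdcd1 detected minus members without, for named genes grouped by role. Bars are 1 SE derived from edgeR's F statistic over 4 libraries. Filled points passed an adjusted p of 0.05; Rgs16 (3.19) and Lag3 (2.59) lie right of 0, and Igfbp4 (-3.50), Lef1 (-3.43) and Gzma (-2.23) left of it.

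Between the PD-L1 KO and WT libraries no gene of the activated CD8 T cells passed the test. Of 3856 genes tested with edgeR's quasi-likelihood test, 0 (0%) were higher and 0 (0%) lower at an adjusted p of 0.05. At an unadjusted p under 0.05 there were 188, of which 89 (2.31%) were higher and 99 (2.57%) lower. DESeq2 called Ly6a and Mt1. With 1 library left out the count was 17 without PD-L1 KO 1, 13 without PD-L1 KO 2, 31 without WT 2 and 0 without WT 1, but each such fit leaves 1 library in a group and assumes that it varies like those of the other group. Over all genes, 15.8% had both PD-L1 KO libraries above both WT libraries and 18.7% had both below.

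Ly6a (chr15:74994877-74998031, minus strand), an interferon-inducible surface protein of lymphocytes, came closest. It was at 285 and 410.1 CPM in members of the PD-L1 KO libraries and 22.6 and 32.8 CPM in those of the WT libraries (log2 difference 3.68 ± 0.37 SE, adjusted p = 0.0548). Both PD-L1 KO libraries were above both WT libraries, and by more than their spread, at means of 347 ± 88.6 CPM in PD-L1 KO and 27.7 ± 7.22 CPM in WT (SD, n = 2 each). Ly6a was found in 16 of 60 and 8 of 27 members of the PD-L1 KO libraries and in 3 of 51 and 3 of 35 of the WT libraries, and 1 cell gave 48 of 146 UMIs in PD-L1 KO 1 and 33 of 82 in PD-L1 KO 2. Over 17 alternative settings the log2 difference stayed between 3.23 and 5.09 and passed in 12, with adjusted p from 3.77e-17 to 0.224. Ly6a lies in a cluster of related genes and Ifi27l2a has close relatives, so reads could be shared with them. In gate-negative cells Ly6a was at 288 and 696 CPM in the PD-L1 KO libraries and 73.8 and 185 CPM in the WT libraries. The difference of PD-L1 KO minus WT was larger by 1.79 ± 0.46 (log2) in members than in gate-negative cells, which did not pass (adjusted p = 0.461).

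Mt1, a metallothionein that binds zinc and copper, was at 314 and 160.0 CPM in members of the PD-L1 KO libraries and 38.8 and 14.1 CPM in those of the WT libraries (log2 difference 3.14 ± 0.46, adjusted p = 0.389). The groups did not overlap, but single cells carried the level: 1 cell gave 79 of 161 UMIs in PD-L1 KO 1 and 31 of 32 in PD-L1 KO 2. Over 16 alternatives the log2 difference of Mt1 ran from 1.76, after thinning, to 4.84 and passed in 10, with adjusted p from 1.03e-12 to 0.999. Ms4a4c (2.04), Ube2c (2.10) and Chchd10 (1.48) had the next smallest p among higher genes, and Ugcg (-1.23), Neat1 (-1.25), Lst1 (-1.32), Arhgap4 (-1.73) and Sept11 (-1.18) among lower ones, all with adjusted p = 0.894.

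Ifi27l2a (chr12:103442167-103443680, minus strand), an interferon-induced gene, was the one gene whose difference between the groups itself differed between members and gate-negative cells. In members it was at 1411 and 2656 CPM in the PD-L1 KO libraries and 976 and 502 CPM in the WT libraries. In gate-negative cells it was at 210.0 and 317 CPM in the PD-L1 KO libraries and 523 and 572 CPM in the WT libraries. The PD-L1 KO libraries were thus higher in members and lower in gate-negative cells. The class-by-group term was 2.59 ± 0.36 on the log2 scale (edgeR adjusted p = 0.0150), the single call (0.0242%) among 4137 genes. The count of calls was 21 without PD-L1 KO 1, 21 without PD-L1 KO 2, 5 without WT 1 and 44 without WT 2, in fits where the lone library of a group is assumed to vary like the others. Within members alone the difference of 1.50 ± 0.39 did not pass (adjusted p = 0.894). The change was carried by many cells, for 49 of 60 and 27 of 27 members had the transcript in the PD-L1 KO libraries, against 32 of 51 and 16 of 35 in the WT libraries. Without cycling cells the term was 2.69 and no longer passed (adjusted p = 0.104).

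The interferon-response list, which includes Ifi27l2a and Ly6a, had no gene that passed between the groups. Of 36 tested, 26 had a positive and 10 a negative log2 difference of PD-L1 KO minus WT, with a median of 0.35 against -0.00 over all genes. Both PD-L1 KO libraries were above both WT libraries for 14 and below for 1, against 15.8% and 18.7% of all 3856 genes tested. Of all those genes, 1918 had a positive and 1938 a negative difference. Isg15, a ubiquitin-like antiviral protein (chr4:156199424-156200818, minus strand), was at 131 and 285 CPM in members of the PD-L1 KO libraries and 80.8 and 75.1 CPM in those of the WT libraries (log2 difference 1.37 ± 0.43, adjusted p = 0.894). PD-L1 KO 2 was the highest library, and 1 cell gave 27 of its 57 UMIs.

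Many interferon-responsive genes carry the interferon-stimulated response element in their promoters. Its core was searched as GAAA, any 2 bases and GAAA again (TTTC, 2 bases and TTTC on the other strand). Of the 36 tested genes of the list, 28 were found in RefSeq's promoters of GRCm38.p6, and Ly6a and Ifi27l2a were not among them. The core was present in the 250 bases before the start of 15 of those 28, and in 2.98% of all 32851 promoters. Isg15 is shown because its promoter holds 3 overlapping matches, in capitals (chr4:156200819-156201068, minus strand, read 5′ to 3′ towards the start site). A match is a run of letters and not a measured binding site.
Isg15: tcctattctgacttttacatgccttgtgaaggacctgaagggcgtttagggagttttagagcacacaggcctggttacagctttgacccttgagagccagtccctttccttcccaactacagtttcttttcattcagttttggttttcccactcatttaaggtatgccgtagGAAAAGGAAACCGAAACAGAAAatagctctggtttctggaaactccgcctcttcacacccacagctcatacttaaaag

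Among effector genes, Gzma was at 439 and 850.2 CPM in the PD-L1 KO libraries and 1403 and 1792 CPM in the WT libraries (log2 difference -1.30 ± 0.35, adjusted p = 0.894). Gzma passed with a gate of 2 UMIs and at equal cell numbers. Its UMIs came from 11 and 8 cells of the PD-L1 KO libraries and 12 and 10 of the WT libraries. Prf1 (-0.47 ± 0.37), Nkg7 (0.21 ± 0.31), Ifng (-0.02 ± 0.57), Lag3 (0.23 ± 0.53), Tox (-0.34 ± 0.29) and Ctla4 (0.70 ± 0.44) overlapped between the groups. Of 17 cytotoxic effectors tested, 9 were positive and 8 negative, and of 16 inhibitory and exhaustion genes 8 were positive and 8 negative, with medians of 0.01 and -0.05.

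Of 19 naive and memory genes tested 17 were negative (median -0.49). Both PD-L1 KO libraries were below both WT libraries for only 3 of the 19, against 18.7% of all genes, and above for 0. The 26 genes of the list summed to 2985 and 3741 CPM in members of the PD-L1 KO libraries and 3368 and 6244 CPM in those of the WT libraries. WT 1 thus lay between the PD-L1 KO libraries, and only WT 2 stood apart. Klf2 was at 408 and 505 CPM in members of the PD-L1 KO libraries and 688 and 1346 CPM in those of the WT libraries (-1.14 ± 0.36, adjusted p = 0.894). WT 2 was the highest library, and Klf2 passed with a gate of 2 UMIs. Of 12 glycolytic genes 11 were positive (median 0.37), with Ldha, which makes lactate, at 747 and 820.2 CPM in the PD-L1 KO libraries and 475 and 441 CPM in the WT libraries (0.80 ± 0.19, adjusted p = 0.894). Of 35 cell-cycle genes 24 were positive (median 0.19), and of 19 class I presentation genes 11 were (median 0.20). None of these lists had a gene that passed.

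The members' RNA also held markers of other cells, at levels that varied by library. No gene of these lists passed between the groups, and the dendritic and neutrophil sums overlapped. The 13 dendritic genes summed to 1779 and 230.1 CPM in members of the PD-L1 KO libraries and 478 and 174 CPM in those of the WT libraries, with Cd74 leading in PD-L1 KO 1. The neutrophil list summed to 3541 and 530.1 CPM in the PD-L1 KO libraries and 6499 and 2749 CPM in the WT libraries, and the 14 markers of other T and NK subsets to 851 and 610.2 CPM in the PD-L1 KO libraries and 1128 and 919 CPM in the WT libraries. Between 2 and 5 of the neutrophil genes were at 0 in a library. The part of these in any difference between the groups was not tested.

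**Figure D5:**
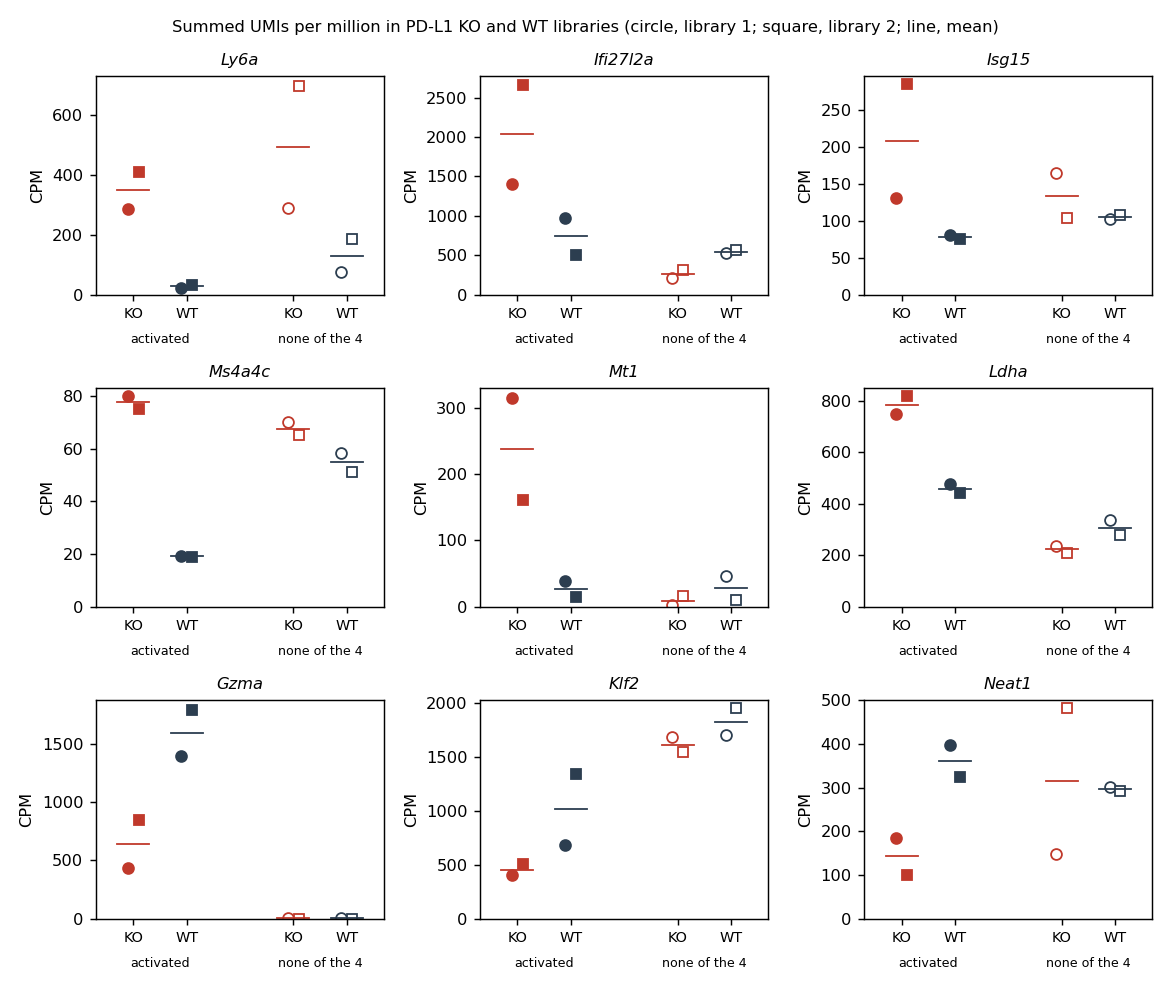
Level (CPM, linear axis from 0) of 9 genes in activated (filled) and gate-negative (open) CD8 T cells, PD-L1 KO libraries (red) left of WT libraries (dark blue). Circles are library 1, squares library 2 and lines the mean of 2 libraries; Ifi27l2a is higher in PD-L1 KO among activated cells and lower among gate-negative ones, and Ly6a is higher in PD-L1 KO in both classes.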

How the data were processed

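RNA of CD45-selected lung leukocytes was captured as single cells in 4 droplet libraries with a 3′ kit (version 3). The deposited values are UMI counts per gene and barcode, mapped to mm10 (GRCm38) with STAR in Cell Ranger 3.1.0, per the file headers and the submitters' processing notes, with an annotation release not given there. Coordinates are those of GENCODE's GRCm38 annotation. Total UMIs were 17618220 to 19635983 per library. The cell filter and gate are given in the report; no doublets were removed in the main result.

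Counts of members were summed per library and tested with edgeR 4.0.16 (R 4.3.3; filterByExpr, TMM, quasi-likelihood test, Benjamini-Hochberg over all genes tested, adjusted p at most 0.05). Comparisons within libraries had the library as a block. The SE of a log2 difference was derived as its absolute value divided by the square root of the test's F statistic. CPM is UMIs per 1000000 of the class sum; fewer expressing cells and less RNA per cell cannot be told apart in such sums. Genes of the rule stayed in the fits and in the counts over all genes, but are given as values only. Genes with 3 or fewer UMIs in a class are given as ratios with exact intervals, which cover counting error only. Cells were thinned to 2000 UMIs for shares of cells with a UMI. Genes were named by a fixed rule: the 10 largest called changes per direction at 20 CPM or more with groups that do not overlap (5 of smallest p where fewer pass) and a set list of T-cell genes, plus examples from each gene list. Epsti1, Isg20, Ifi27l2a and the other genes outside that rule were named after their values were seen. The members and gene lists were chosen with earlier results of these data known. Alternatives were DESeq2 1.42.0, other filters, gates and scalings, thinning, and leaving out libraries, cycling cells or doublets (Scrublet scores, scanpy 1.11.5). Some genes are not reported here. The model was tested on simulated data.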

Additional observations from a re-analysis of the deposited data

Results flagged for a closer look

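The difference of PD-L1 KO minus WT in Ifi27l2a itself differed between activated and gate-negative CD8 T cells, by 2.59 ± 0.36 on the log2 scale (edgeR class-by-group term, adjusted p = 0.0150). In members the transcript was detected in 81.7% and 100% of cells of the PD-L1 KO libraries and 62.7% and 45.7% of cells of the WT libraries. In gate-negative cells it was detected in 43.7% and 69.4% of cells of the PD-L1 KO libraries and 67.7% and 56.8% of cells of the WT libraries. After thinning to 2000 UMIs, members had it in 70.7% and 81.5% of cells of the PD-L1 KO libraries and 52.2% and 32.4% of cells of the WT libraries. Gate-negative cells, thinned alike, had it in 27.1% and 50.0% of cells of the PD-L1 KO libraries and 45.9% and 40.4% of cells of the WT libraries, so the groups overlapped there. B cells, thinned alike, had it in 48.4% and 60.6% of cells of the PD-L1 KO libraries and 52.1% and 47.6% of cells of the WT libraries. The term ran from 2.05 to 3.15 over 15 alternatives, with adjusted p from 5.22e-11 to 0.104.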

How the results depend on the processing

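Between PD-L1 KO and WT, the count of 0 genes became 33 with no filter on low counts, 2 with DESeq2, 2 with at least 500 genes and at most 5% mitochondrial UMIs per cell, 6 with a gate of 2 UMIs, 2 with stricter lineage limits, 1 without doublets, 1 after thinning, 1 without the deepest cells, 2 with a replicate block and 3 at equal cell numbers, and lay between 0 and 31 with 1 library left out. The labels do not say whether same-numbered libraries were handled together. The correlation of same-numbered deviations (r = 0.141) rests on 2 libraries per group and cannot decide it. The 684 genes of activated against gate-negative cells became 1371 with no filter, 297 with DESeq2, 276 with the stricter cell filter, 451 with stricter lineage limits, 156 without cycling cells and 268 after thinning, and 204 to 652 with 1 library left out. The 156 genes of the Pdcd1 split became 290 with no filter, 59 with DESeq2, 7 with the stricter cell filter, 79 with a gate of 2, 28 without cycling cells, 28 after thinning, 28 when thinned before the split, 51 without the deepest cells and 56 with no replicate block, and 51 to 144 with 1 library left out. The single class-by-group call became 2 with RLE scaling, 44 with no filter, 2 with DESeq2, 0 without cycling cells and 2 without the deepest cells, and 5 to 44 with 1 library left out. Turned directions were those of Ly6a in members against gate-negative cells after thinning (0.24), and of Ifng (-0.082), Ccl4 (-0.13) and Ctla4 (-0.0038) when cells were thinned before the Pdcd1 split. The member share of kept barcodes, PD-L1 KO minus WT, ran from -0.432 to 0.902 points, and of CD8 T barcodes from -0.803 to 17.4, with 1 library left out. The causes were not tested. Leaving out the deepest cells was chosen after seeing the data.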
